A study of Mus musculus with 18 samples.

Results

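Interferon response genes were followed in mouse liver tumors driven by AKT and YAP. The group was chosen by name: it holds 36 genes that cells switch on after interferon or viral nucleic acid. Of these, 35 were matched by symbol and Ifit3b by its Ensembl identifier, since the table lists it under an older symbol. All 36 had enough counts to be tested, among 18318 tested genes of 43346 in the tumor table. RNA sequencing libraries of single tumors gave 3 tumors in each of 4 groups. In YAP-SY CCA (labelled cholangiocarcinoma) and YAP-SY mixed tumors the introduced genes were myr-AKT, a form of AKT held at the membrane, and YAP with S127A and Y357F. In YAP-S CCA and YAP-S mixed tumors they were myr-AKT and YAP with S127A alone, so all 4 groups carried myr-AKT and the S127A change. S127A removes a site through which Hippo kinases keep YAP out of the nucleus, and Y357 is a tyrosine that Src family kinases phosphorylate. Host strain, age and the way the genes were delivered are not given in the sources used here. A second table holds 3 samples of SB1, a cell line whose genotype label is that of YAP-S CCA; 3 samples of the SY1 line are not analysed here.

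Interferons are secreted proteins that warn cells of infection. Type I interferons (alpha and beta) act through the receptor chains Ifnar1 and Ifnar2 and a complex that holds Stat2 and Irf9, which binds a DNA element called ISRE. Type II interferon (gamma), made mostly by T cells and NK cells, acts through Ifngr1 and Ifngr2, an element called GAS, and Irf1. Antiviral effectors such as the Ifit, Oas and Mx proteins are classical products of the type I pathway, whereas GBP GTPases and the antigen processing genes Psmb8, Psmb9 and Tap1 respond strongly to interferon gamma, and most of the genes respond to both kinds.

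RefSeq promoters on GRCm38.p6 (the mm10 build of the files) were found for 27 of the 36 genes. An ISRE core, spelled GAAA, any 2 bases, GAAA, and sought on both strands of the 250 bases before the start, stood in 13 of the 27 (48.1%), against 3.46% of 27025 mouse promoters. A GAS element, TTCNNNGAA, stood in 6 of the 27 (22.2%), against 8.13% of all promoters. Neighbouring ISRE matches may overlap, and a letter match is a description, not a site shown to be bound. The stretches below are shown because the same letters recur before antiviral effectors, a modifier and GBP genes, groups that the results set side by side. The antigen processing genes, set beside them too, had no ISRE core match in this window. Of these, Psmb8 had a GAS match, and Psmb9 and Tap1 had neither. Capitals mark complete ISRE core matches, on either strand, and each stretch reads 5′ to 3′ on the strand of its gene.
Isg15, chr4:156200860-156200899, minus strand: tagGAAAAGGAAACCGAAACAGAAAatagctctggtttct
Ifit3, chr19:34583392-34583431, plus strand: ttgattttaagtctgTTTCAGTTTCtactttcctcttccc
Ifit3b, chr19:34607788-34607827, plus strand: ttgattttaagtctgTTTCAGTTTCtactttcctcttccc
Rsad2, chr12:26456548-26456587, minus strand: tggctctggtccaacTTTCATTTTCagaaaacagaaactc
Oas3, chr5:120777710-120777749, minus strand: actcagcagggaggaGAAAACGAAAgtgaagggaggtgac
Gbp2, chr3:142620589-142620628, plus strand: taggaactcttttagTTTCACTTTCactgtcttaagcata
Gbp3, chr3:142559990-142560029, plus strand: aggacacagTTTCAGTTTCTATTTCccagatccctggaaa
Gbp7, chr3:142530268-142530307, plus strand: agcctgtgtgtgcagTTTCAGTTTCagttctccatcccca
The Ifit3 and Ifit3b stretches were identical at 40 of 40 bases, and most of the Gbp2 stretch, the marked match included, lies inside the gene span of the deposited table, which starts at 142620602. These 2 genes are near-identical neighbours on chromosome 19, so how reads were split between them is uncertain. The Oas1a and Trim30a loci also lie in clusters of close relatives.

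Total counts ran between 30656499 and 130035221 per tumor and between 25341968 and 30541185 per SB1 sample. Levels below are CPM, the counts of a gene over the size of its library, with sizes scaled by TMM, a method that assumes most genes do not change. They compare 1 gene across tumors. Per kilobase of annotated length, Bst2, which tethers budding virus particles to the cell, had the highest mean of the 36 in all 4 groups, at 136, 182, 130 and 149 CPM per kb in YAP-SY CCA, YAP-S CCA, YAP-SY mixed and YAP-S mixed tumors. Isg15, a ubiquitin-like protein joined to other proteins, came next in each group, between 25.6 and 54.4 CPM per kb. Oas3 was lowest in each, between 0.592 and 2.36 CPM per kb. The histology labels went only part of the way with the markers. Krt19, a keratin of bile duct cells, was at 15.6, 2.52 and 1.45 CPM in tumors 1, 6 and 8 of YAP-SY CCA, against 56.7, 88.4 and 35.8 CPM in tumors 3, 4 and 5 of YAP-S CCA. Sums over the cholangiocyte markers, mostly Spp1, were 2770 to 4200 CPM in YAP-SY CCA and 7510 to 10900 CPM in YAP-S CCA. In YAP-SY mixed and YAP-S mixed tumors they were 4300 to 16400 and 9460 to 10200 CPM. Hepatocyte marker sums were 126000 to 142000 CPM in YAP-SY CCA and 44000 to 54900 CPM in YAP-S CCA. They were 78000 to 102000 and 72500 to 79800 CPM in YAP-SY mixed and YAP-S mixed tumors. YAP-SY CCA was thus lowest in the first and highest in the second.

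**Figure D1:**
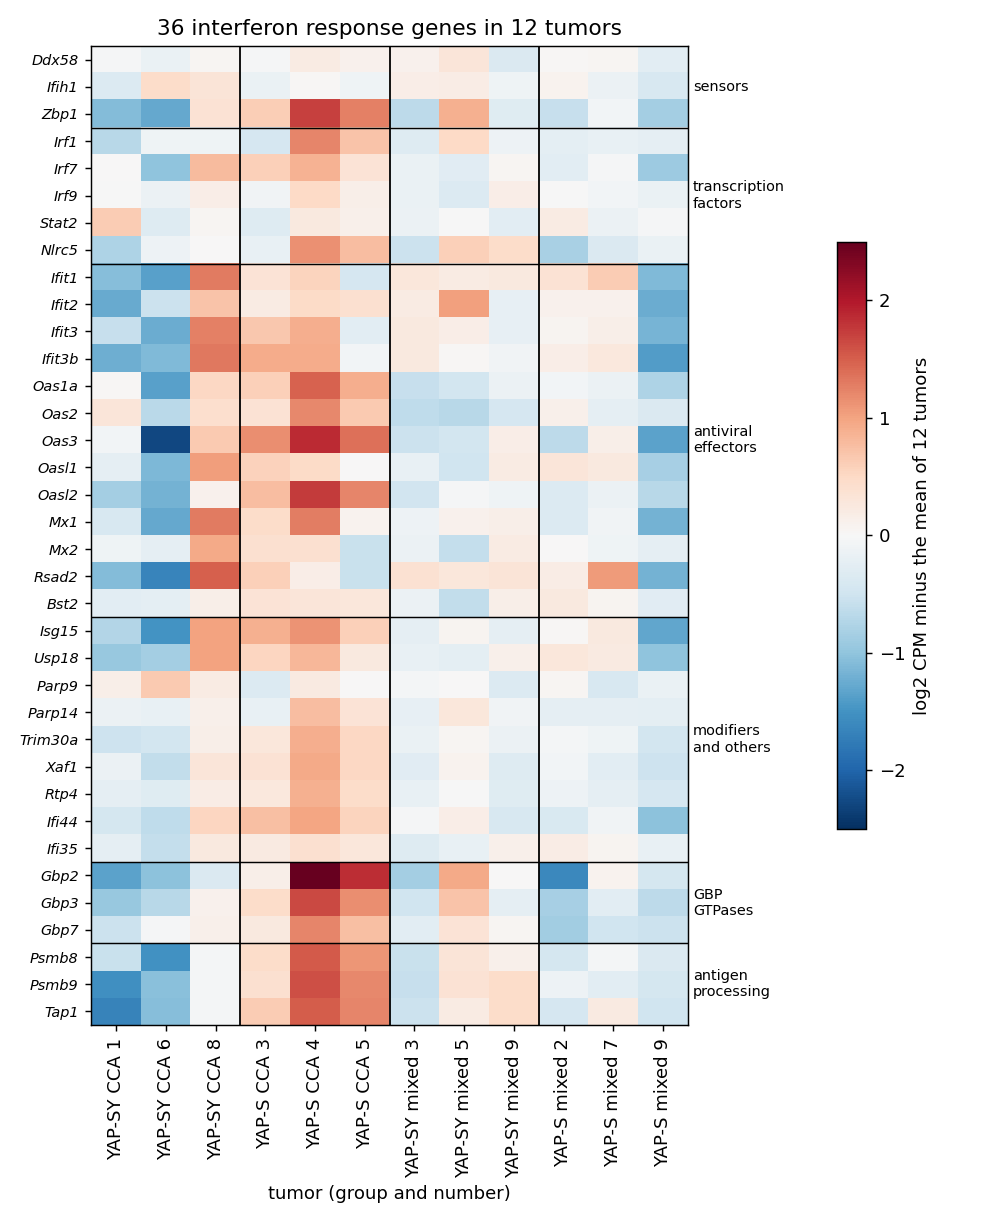
Each row is 1 of the 36 genes and each column 1 of 12 tumors, with colour giving log2 CPM minus the mean of that gene over the 12 tumors. Tumor 4 of YAP-S CCA has the highest level of 22 genes, and tumor 8 of YAP-SY CCA that of 8 genes, mostly Ifit, Mx and related antiviral effectors.

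Setting YAP-SY against YAP-S among CCA tumors asks which genes differ when YAP lacks the tyrosine in tumors labelled as bile duct cancer. In edgeR's quasi-likelihood test, adjusted over all genes by Benjamini-Hochberg, 15 of the 36 genes fell in YAP-SY CCA and 0 rose at an adjusted p under 0.05. Of all tested genes, 20.8% fell, 18.3% rose and 39.1% changed either way. With both directions counted, the share of the 36 that changed is near that of all genes. By direction it is not, since all 15 were lower. The median log2 fold change was -0.59 over the 36 genes and 0 over all genes. The 2 groups did not overlap, with YAP-SY CCA lower, for 15 of the 36, against 28.3% of all genes. By role, the genes that fell were all 3 GBP GTPases and all 3 antigen processing genes, 3 of 13 antiviral effectors, 4 of 9 modifiers and others, 1 of 3 sensors and 1 of 5 transcription factors. In whole tumors, fewer cells of a type and less RNA per cell cannot be told apart. Nothing in the labels says more of how the tumors relate than that they are separate samples, so p-values measure the spread between these tumors.

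Guanylate-binding proteins are large GTPases that coat vacuoles and membranes of intracellular microbes. Their genes lie together on chromosome 3, with Gbp7 at 142530338 to 142550083, Gbp3 at 142560052 to 142573209 and Gbp2 at 142620602 to 142638008. Gbp2 was at 8.81, 10.9 and 17.3 CPM in tumors 1, 6 and 8 of YAP-SY CCA, against 24.7, 133 and 80.1 CPM in tumors 3, 4 and 5 of YAP-S CCA. The fall was 6.43-fold (log2 fold change -2.68, SE 0.61, adjusted p 0.00475), the widest fall among the 36 genes. Tumor 3 of YAP-S CCA lay much closer to the YAP-SY CCA tumors than tumors 4 and 5 did, yet the groups did not overlap. Gbp3 was at 9.09, 10.9 and 18.8 CPM in YAP-SY CCA, against 24.2, 55.4 and 39.5 CPM in YAP-S CCA (log2 fold change -1.62, SE 0.38, adjusted p 0.00509). Gbp7 was at 15.9, 22.6 and 24.9 CPM in YAP-SY CCA, against 27.1, 53.6 and 38.7 CPM in YAP-S CCA (log2 fold change -0.91, SE 0.25, adjusted p 0.0123). All 3 genes showed the same order of the YAP-S CCA tumors, 4 above 5 above 3. Without tumor 4 of YAP-S CCA the call for Gbp7 was lost (log2 fold change -0.64), while Gbp2 and Gbp3 passed without any 1 of the 6 tumors.

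The antigen processing genes sit side by side on chromosome 17. Psmb9 (34181988 to 34187764) and Psmb8 (34197721 to 34201454) encode subunits of the immunoproteasome, which cuts proteins into peptides for MHC class I, and Tap1 (34187553 to 34197225) encodes a chain of the pump that moves them into the endoplasmic reticulum. The spans of Psmb9 and Tap1 overlap by 212 bases, and since the library kit does not mark strand, reads within the overlap cannot be told apart. Tap1 was at 12.2, 18.5 and 37.5 CPM in tumors 1, 6 and 8 of YAP-SY CCA, against 59.9, 110 and 90 CPM in tumors 3, 4 and 5 of YAP-S CCA (log2 fold change -1.93, SE 0.39, adjusted p 0.00247). Psmb9 was at 6.89, 9.67 and 19.2 CPM in YAP-SY CCA, against 26.1, 60.7 and 45.7 CPM in YAP-S CCA (log2 fold change -1.89, SE 0.39, adjusted p 0.00268). Psmb8 was at 22.8, 11.7 and 32.3 CPM in YAP-SY CCA, against 46.2, 96.5 and 72 CPM in YAP-S CCA (log2 fold change -1.68, SE 0.35, adjusted p 0.00286). The 3 genes were thus 3.21 to 3.81-fold lower in YAP-SY CCA, their groups did not overlap, and each passed without any 1 of the tumors.

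Among the antiviral effectors, 3 genes of the Oas family fell. Oasl2, an OAS-like protein with ubiquitin-like ends (chromosome 5, 114896936 to 114912234), had the smallest adjusted p of the 36 genes. It was at 12.6, 10.1 and 24.4 CPM in tumors 1, 6 and 8 of YAP-SY CCA, against 38.9, 76.7 and 52.8 CPM in tumors 3, 4 and 5 of YAP-S CCA (3.58-fold lower, log2 fold change -1.84, SE 0.32, adjusted p 0.00106). Oas3 and Oas1a make the 2-5A messenger that activates RNase L. Oas3 was at 4.15, 0.894 and 6.87 CPM in YAP-SY CCA, against 9.73, 15.9 and 11.3 CPM in YAP-S CCA (log2 fold change -1.63, SE 0.55, adjusted p 0.0323). Oas1a was at 9.29, 3.55 and 13.1 CPM in YAP-SY CCA, against 13.7, 25.3 and 17.1 CPM in YAP-S CCA (log2 fold change -1.11, SE 0.38, adjusted p 0.0355). Tumor 6 was the lowest of the YAP-SY CCA tumors for each of these, and the groups did not overlap. The calls for Oas3 and Oas1a were lost when tumor 1 or 6 of YAP-SY CCA or tumor 4 or 5 of YAP-S CCA was left out, with log2 fold changes between -1.16 and -1.71 for Oas3 and between -0.74 and -1.19 for Oas1a. Oas2 (log2 fold change -0.69, adjusted p 0.0697) and Oasl1 (-0.2, adjusted p 0.75) did not pass.

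The other 8 antiviral effectors, Ifit1, Ifit2, Ifit3, Ifit3b, Mx1, Mx2, Rsad2 and Bst2, did not pass either, with log2 fold changes between -0.49 and 0.16. Tumor 8 of YAP-SY CCA stood apart from the other 2 in most of them. Its column name carries another prefix than those of tumors 1 and 6, and the labels do not say what the prefix marks. Rsad2, which makes a chain-terminating nucleotide, was at 15.5, 10.5 and 92.5 CPM in tumors 1, 6 and 8 of YAP-SY CCA, against 50.2, 37.1 and 22.6 CPM in tumors 3, 4 and 5 of YAP-S CCA (log2 fold change 0.11, SE 0.69, adjusted p 0.918). Ifit3, of a family that binds viral RNA, was at 26.3, 16.5 and 93.7 CPM in YAP-SY CCA, against 62.9, 73.6 and 32.7 CPM in YAP-S CCA (log2 fold change -0.31, SE 0.53, adjusted p 0.675). Ifit1 was at 12.4, 10.1 and 63.9 CPM in YAP-SY CCA, against 32.8, 37.8 and 19.4 CPM in YAP-S CCA. In all 3 genes, tumor 8 of YAP-SY CCA was above every YAP-S CCA tumor and tumors 1 and 6 were below each of them. Over all 12 tumors, tumor 8 held the highest level of 8 genes (Ifit1, Ifit3, Ifit3b, Oasl1, Mx1, Mx2, Rsad2 and Usp18), and within its group that of 32 of the 36, as it did for 31.4% of all genes. Within YAP-SY CCA the highest tumor exceeded the lowest by 8.8-fold at most, and by a median of 4.53-fold over the 13 antiviral effectors, against 1.95-fold within YAP-S CCA. Bst2 stayed within a narrow band, at 93.6, 93.8 and 124 CPM in YAP-SY CCA, against 142, 138 and 136 CPM in YAP-S CCA (log2 fold change -0.42, adjusted p 0.102). Its groups did not overlap all the same, with YAP-SY CCA lower, as for 28.3% of all genes.

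**Figure D2:**
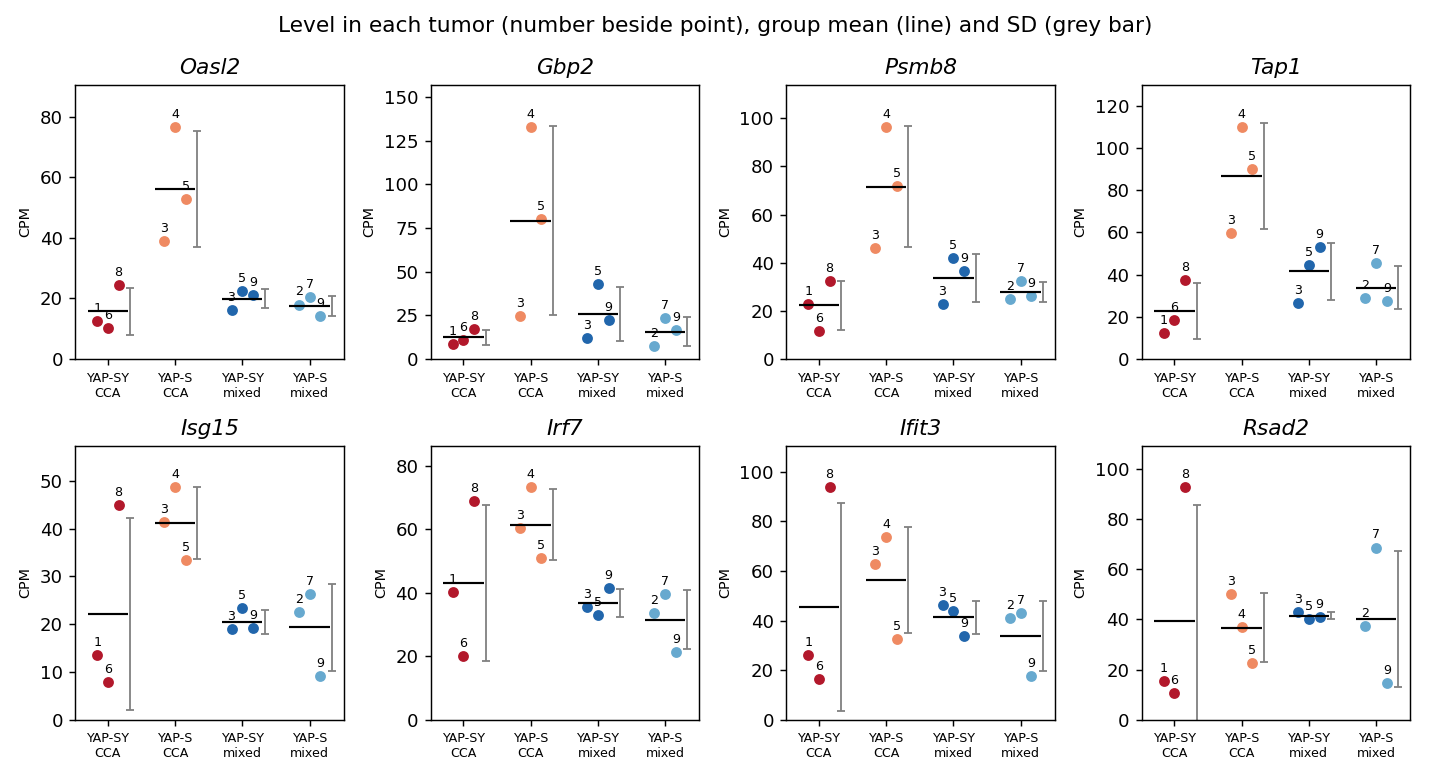
CPM of 8 genes in each tumor (points, with tumor numbers), with the group mean as a line and the SD as a grey bar that is cut at 0. For Oasl2, Gbp2, Psmb8 and Tap1 the YAP-SY CCA tumors lie below all YAP-S CCA tumors, whereas tumor 8 of YAP-SY CCA reaches their range or passes it for Isg15, Irf7, Ifit3 and Rsad2.

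Modifiers and others included 4 genes that fell by modest amounts. Trim30a, a ubiquitin ligase of the Trim family, was at 14, 14.7 and 22.1 CPM in tumors 1, 6 and 8 of YAP-SY CCA, against 24.3, 37.7 and 28.9 CPM in tumors 3, 4 and 5 of YAP-S CCA (log2 fold change -0.84, SE 0.21, adjusted p 0.00765). Rtp4, a receptor transport protein with antiviral activity, was at 19.4, 18.4 and 26 CPM in YAP-SY CCA, against 27.3, 42.2 and 31.1 CPM in YAP-S CCA (log2 fold change -0.66, SE 0.18, adjusted p 0.0139). Xaf1, which binds the apoptosis inhibitor XIAP, was at 13.9, 10.1 and 19.1 CPM in YAP-SY CCA, against 19.8, 29.9 and 22.3 CPM in YAP-S CCA (log2 fold change -0.74, SE 0.24, adjusted p 0.0253). None of the 3 overlapped between the groups. Ifi44 was at 9.83, 8.55 and 19.3 CPM in YAP-SY CCA, against 22.2, 26.4 and 19.5 CPM in YAP-S CCA (log2 fold change -0.86, SE 0.31, adjusted p 0.0425), so that the nearest tumors were almost level. Of the 4, Trim30a passed without any 1 tumor. Rtp4 did not pass without tumor 6 of YAP-SY CCA or tumor 4 of YAP-S CCA, Xaf1 also not without tumor 1 of YAP-SY CCA, and Ifi44 did not pass without any 1 tumor except tumor 8 of YAP-SY CCA. Isg15 was at 13.5, 7.91 and 45 CPM in YAP-SY CCA, against 41.4, 48.6 and 33.5 CPM in YAP-S CCA, and did not pass (log2 fold change -0.9, SE 0.51, adjusted p 0.185). Without tumor 8 it was at -1.94 and passed. Usp18, the protease that removes Isg15 and damps the type I receptor, Parp9, Parp14 and Ifi35 did not pass, with log2 fold changes between -0.52 and 0.37.

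Sensors and transcription factors mostly did not pass. Zbp1, a sensor of Z-form nucleic acid, was at 7.25, 6.35 and 19.9 CPM in tumors 1, 6 and 8 of YAP-SY CCA, against 23.5, 50.2 and 37.1 CPM in tumors 3, 4 and 5 of YAP-S CCA (log2 fold change -1.73, SE 0.48, adjusted p 0.0137). That call was lost without tumor 1 or 6 of YAP-SY CCA or tumor 4 of YAP-S CCA, at -1.44 to -1.49. The RNA sensors Ddx58 (RIG-I) and Ifih1 (MDA5) were at log2 fold changes of -0.15 and 0.26. Irf1, a factor induced by interferon gamma, was at 31.4, 47.4 and 47.1 CPM in YAP-SY CCA, against 37.9, 119 and 83.4 CPM in YAP-S CCA. Its log2 fold change of -0.94 passed narrowly (SE 0.33, adjusted p 0.0421) with overlapping groups, and did not pass without any 1 of the tumors except tumor 3 of YAP-S CCA. Nlrc5, which switches on MHC class I genes, was at 23.7, 37.2 and 40.9 CPM in YAP-SY CCA, against 35.5, 89.5 and 68.9 CPM in YAP-S CCA, just outside the threshold (log2 fold change -0.93, SE 0.35, adjusted p 0.0509). Irf7, which amplifies interferon genes, was at 40.2, 20 and 68.9 CPM in YAP-SY CCA, against 60.4, 73.1 and 50.8 CPM in YAP-S CCA (log2 fold change -0.51, adjusted p 0.259, and -1.03 with a call without tumor 8 of YAP-SY CCA). Irf9 and Stat2, of the complex that binds ISRE, did not pass. Irf9 was at 45.6, 41.9 and 52.1 CPM in YAP-SY CCA, against 43.6, 65.3 and 51.2 CPM in YAP-S CCA (log2 fold change -0.2, SE 0.17, adjusted p 0.373). Stat2 was at 145, 75.3 and 96.7 CPM in YAP-SY CCA, against 74.8, 112 and 102 CPM in YAP-S CCA (log2 fold change 0.13, SE 0.22, adjusted p 0.665), and its sign turned under library size alone and without tumor 1 of YAP-SY CCA or tumor 3 of YAP-S CCA.

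The count in CCA depended on single tumors. It was 25 of the 36 without tumor 8 of YAP-SY CCA, 8 without tumor 6 of that group, and 7 without tumor 4 of YAP-S CCA. How many of all genes passed in those fits is not given here. The 7 genes Oasl2, Trim30a, Gbp2, Gbp3, Psmb8, Psmb9 and Tap1 passed in all 15 fits of this comparison. Under library size alone 24 genes fell, but that scaling moved the median of all genes to -0.56, and 760 of 8824 called genes were then higher in YAP-SY CCA, against 3358 of 7171 with TMM.

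The same comparison in mixed tumors gave no calls. By edgeR's test 0 of the 36 genes and 0 of 18318 genes (0%) passed; at an unadjusted p under 0.05 there was 1 of the 36 (Gbp7) against 3.01% of all genes, and DESeq2's Wald test and limma-voom gave 0 of the 36. The median log2 fold change was 0.2 over the 36 genes and 0.02 over all genes. The 2 groups did not overlap for Gbp7 and Parp14, with YAP-SY mixed higher (4.3% of all genes), and for Oas2, with YAP-SY mixed lower (4.05% of all genes). Gbp7 was at 19, 29 and 23.6 CPM in tumors 3, 5 and 9 of YAP-SY mixed, against 12.6, 16.3 and 15.9 CPM in tumors 2, 7 and 9 of YAP-S mixed (log2 fold change 0.68, SE 0.25, adjusted p 0.999). Oasl2 was at 16.3, 22.4 and 21.1 CPM in YAP-SY mixed, against 18, 20.5 and 14.1 CPM in YAP-S mixed (log2 fold change 0.18, SE 0.31). Gbp2 was at 12.3, 42.9 and 22.5 CPM in YAP-SY mixed, against 7.25, 23.5 and 16.5 CPM in YAP-S mixed (log2 fold change 0.72, SE 0.58). Apart from Gbp7, these groups overlapped. Tap1 was at 26.7, 44.6 and 53.1 CPM in YAP-SY mixed, against 28.9, 45.4 and 27.3 CPM in YAP-S mixed, with a log2 fold change of 0.29 (SE 0.38). Psmb9 was at 13.4, 25.5 and 27.5 CPM in YAP-SY mixed, against 18.2, 16.5 and 14.6 CPM in YAP-S mixed (log2 fold change 0.44, SE 0.38). Psmb8 was at 22.7, 42.1 and 36.4 CPM in YAP-SY mixed, against 24.9, 32.5 and 26.1 CPM in YAP-S mixed (log2 fold change 0.28, SE 0.34). The groups overlapped for all 3.

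**Figure D3:**
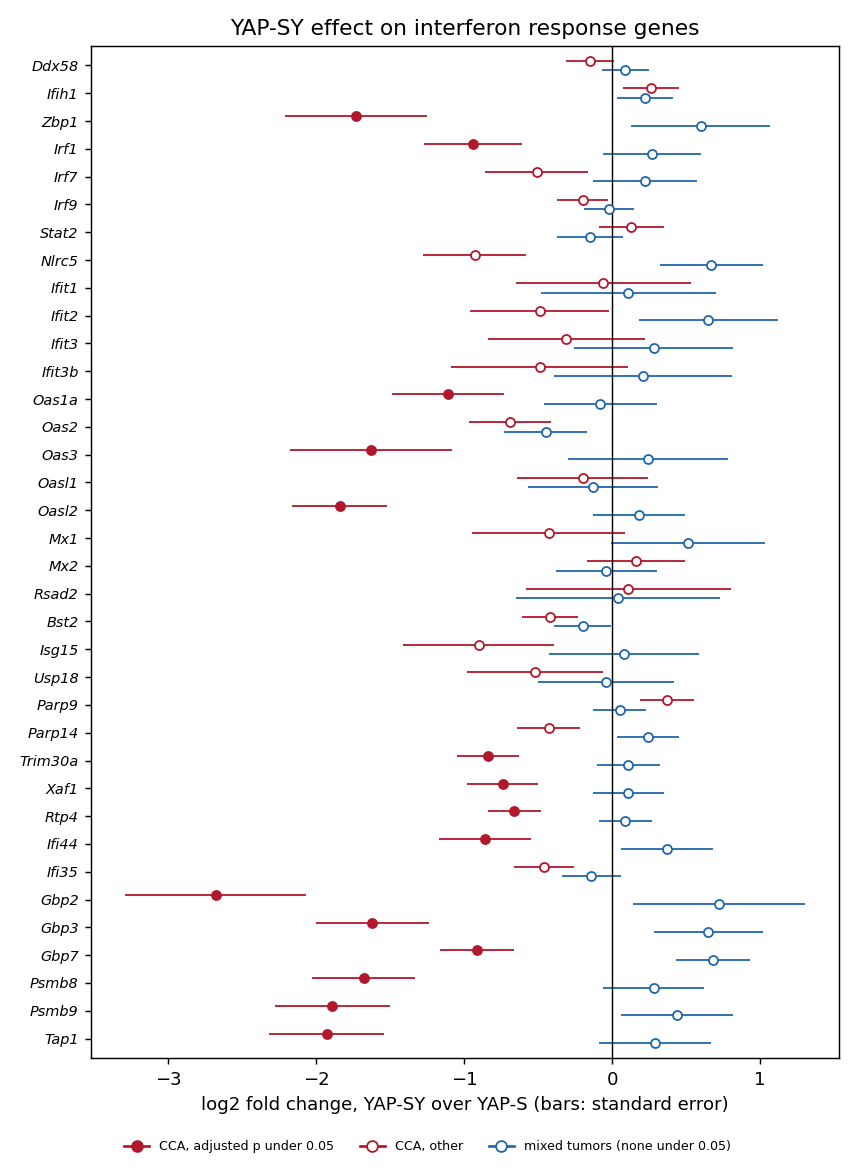
Log2 fold change of YAP-SY over YAP-S for each of the 36 genes (points) with its standard error (bars), in CCA above and in mixed tumors below within each row. Filled points passed the test. The 15 filled points lie between -2.68 and -0.66 in CCA, and the mixed tumor values lie between -0.45 and 0.72.

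The difference of the YAP-SY effect between CCA and mixed tumors was tested itself. It was negative and past the threshold for 10 of the 36 genes and positive for 0, against 10.2% and 5.02% of all genes. These were the 3 GBP genes, the 3 antigen processing genes, Oasl2, Zbp1, Nlrc5 and Trim30a. The differences in log2 fold change were -3.4 for Gbp2 (SE 0.84, adjusted p 0.0205), -2.27 for Gbp3 (SE 0.53, adjusted p 0.016) and -1.6 for Gbp7 (SE 0.35, adjusted p 0.0137). They were -2.33 for Psmb9 (SE 0.54, adjusted p 0.0165), -2.22 for Tap1 (SE 0.54, adjusted p 0.0197) and -1.96 for Psmb8 (SE 0.49, adjusted p 0.0215). Oasl2 differed by -2.02 (SE 0.45, adjusted p 0.0134), Zbp1 by -2.33 (adjusted p 0.0368), Nlrc5 by -1.6 (adjusted p 0.0456) and Trim30a by -0.95 (adjusted p 0.048). The calls for Zbp1, Nlrc5 and Trim30a were lost in 7, 9 and 10 of the 12 fits that left out 1 tumor, those for Gbp2 and Psmb8 in 2 and those for Gbp3 and Tap1 in 1. The 26 genes with no call ran between -1.88 for Oas3 (SE 0.77, adjusted p 0.114) and 0.32 for Parp9 (SE 0.26), among them Ifi44 at -1.22, Irf1 at -1.21, Ifit1 at -0.17 (SE 0.84) and Rsad2 at 0.06 (SE 0.97). The count was 3 without tumor 2 of YAP-S mixed, 5 without tumor 4 of YAP-S CCA, and 19 without tumor 8 of YAP-SY CCA. For these fits the share of all genes called is not given here, so the counts cannot be weighed against it. The 3 that passed without tumor 2 of YAP-S mixed were Oasl2, Gbp7 and Psmb9, which passed without any 1 of the 12 tumors.

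Over both histologies together, Oasl2 (log2 fold change -0.83, SE 0.22, adjusted p 0.0184) and Tap1 (-0.82, SE 0.27, adjusted p 0.0433) fell, 2 of the 36 against 13.1% of all genes lower, and at an unadjusted p under 0.05 there were 10 of the 36 against 38.2% of all genes. Psmb8 was at -0.7 (adjusted p 0.0525) and Oas2 at -0.57 (adjusted p 0.0541). A fit with the tumor number as a block called 4 of the 36, with its share of all genes not given here. Oasl2 lost its call without tumor 3 of YAP-SY mixed or tumor 7 of YAP-S mixed, Tap1 lost its own without any 1 of 8 tumors, and the count ran between 0 and 11 over the 12 tumors left out in turn. The 11 came without tumor 8 of YAP-SY CCA, and the next highest, 6, without tumor 3 of YAP-S CCA. Shares of all genes called with 1 tumor left out are not given here either.

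Between CCA and mixed tumors within YAP-S, edgeR's test called 0 of the 36 and 0 of 18318 genes (0%). At an unadjusted p under 0.05 there were 20 of the 36, against 19.8% of all genes, and the 2 groups did not overlap, with CCA higher, for 22 of the 36, against 20.2% of all genes. The median log2 fold change was 0.85 over the 36 genes and -0.02 over all genes, and 35 of the 36 values were positive. Gbp7 came nearest, at 27.1, 53.6 and 38.7 CPM in tumors 3, 4 and 5 of YAP-S CCA, against 12.6, 16.3 and 15.9 CPM in tumors 2, 7 and 9 of YAP-S mixed (log2 fold change 1.42, SE 0.25, adjusted p 0.0527). Oasl2, at 38.9, 76.7 and 52.8 CPM in YAP-S CCA, against 18, 20.5 and 14.1 CPM in YAP-S mixed, gave 1.68 (SE 0.32, adjusted p 0.054). Gbp3 gave 1.73 (SE 0.38, adjusted p 0.0578), Rtp4 0.82 (SE 0.19, adjusted p 0.0587) and Gbp2 2.33 (SE 0.6, adjusted p 0.0727). Other fits made calls, all with CCA higher: DESeq2's Wald test 16 of the 36, limma-voom 8, limma-voom with the tumor number as a block 12, and edgeR without the filter on low counts 14. The share of all genes called in each of these fits is not given here, so the counts cannot be weighed against it. When any 1 of the 6 YAP-S tumors was left out, edgeR's test again called 0.

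Between CCA and mixed tumors within YAP-SY, edgeR's test called 0 of the 36, against 2.9% of all genes (2.7% lower in CCA). In all, 4 of the 36 (Parp9, Oas2, Psmb9 and Tap1) had an unadjusted p under 0.05 by edgeR's test, against 21.6% of all genes. DESeq2's Wald test and limma-voom called 0 of the 36. The median log2 fold change was 0.02 over the 36 genes and -0.01 over all genes, with 18 values above 0 and 18 below. Parp9 alone did not overlap, with CCA higher, against 7.99% of all genes. Psmb9 was at 6.89, 9.67 and 19.2 CPM in tumors 1, 6 and 8 of YAP-SY CCA, against 13.4, 25.5 and 27.5 CPM in tumors 3, 5 and 9 of YAP-SY mixed (log2 fold change -0.9, SE 0.38, adjusted p 0.198). Tap1 was at 12.2, 18.5 and 37.5 CPM in YAP-SY CCA, against 26.7, 44.6 and 53.1 CPM in YAP-SY mixed (log2 fold change -0.87, SE 0.38, adjusted p 0.213). Column names of tumor 3 of YAP-SY mixed and tumor 8 of YAP-SY CCA carry another prefix than the rest, and without both tumors these 2 genes passed with CCA lower, an alternative chosen after seeing the data. Its share of all genes called is not given here.

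The rest of the pathway moved in CCA tumors as follows, in lists chosen with earlier results of these data known. Interferon genes themselves were hardly detected. Of 10 ligands in the table Ifng alone had counts enough to be tested, and it was listed at 0 in tumors 1, 6 and 8 of YAP-SY CCA, against 0.0101, 0.338 and 0.492 CPM in tumors 3, 4 and 5 of YAP-S CCA. Ifng passed the test with all 6 tumors and without tumor 3 of YAP-S CCA, but not without any 1 of the other 5 nor by limma-voom. Ifnb1 was listed at 0 in each tumor of YAP-SY CCA, against 0.172, 0.0815 and 0 CPM in YAP-S CCA. The median of the receptor list (6 genes) was -0.56: 3 fell and 1 rose, where 20.8% of all genes fell and 18.3% rose. Ifngr1 fell to 43.2, 35.1 and 46.1 CPM in YAP-SY CCA, against 100, 102 and 97.9 CPM in YAP-S CCA (log2 fold change -1.27, SE 0.17, adjusted p 0.000262), a clear gap with little spread within groups. Il10rb, a chain of the type III receptor, and Ifngr2 fell by 0.95 and 0.67 on the log2 scale, while Ifnar2 rose by 0.41 and Ifnar1 did not pass. The Ifnar2 call was lost without any 1 tumor except tumor 1 of YAP-SY CCA, at 0.33 to 0.46. Jak1, a kinase bound to these receptors, was at 0.36 (adjusted p 0.0403), a call lost without any 1 of the 6 tumors.

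Of 8 negative regulators, Socs1, a feedback inhibitor of JAK kinases, fell (log2 fold change -2.25, adjusted p 0.0125, at 0.249, 0.0839 and 0.334 CPM in YAP-SY CCA, against 0.818, 1.19 and 1.22 CPM in YAP-S CCA). Ptpn6, a phosphatase of blood cells, fell by 0.76 and Pias1 rose by 0.45. Neither call was firm: that of Ptpn6 was lost without tumor 1 or 6 of YAP-SY CCA or tumor 4 or 5 of YAP-S CCA, and that of Pias1 without tumor 3 of YAP-S CCA. Of 17 nucleic acid sensing genes 6 fell and 2 rose, where 20.8% of all genes fell and 18.3% rose. Tmem173 (STING) was at 9.76, 4.39 and 10.1 CPM in YAP-SY CCA, against 31.9, 45.2 and 36.9 CPM in YAP-S CCA (log2 fold change -2.23, SE 0.34, adjusted p 0.000507), and Cgas, the DNA sensor upstream of it, fell as well (-1.83, adjusted p 0.00101). Irf8, a factor of myeloid cells, fell by 2.19. Mavs and Tbk1, which relay the signal of RNA sensors, rose by 0.77 and 0.44. Of 48 other interferon-induced genes 16 fell and 3 rose, against 20.8% and 18.3% of all genes. Those with the smallest p were Slfn2 (-1.63), Lgals9 (0.87) and Phf11d (-1.26). No gene rose in these 5 lists under library size alone, where Ifnar2 (-0.16), Jak1 (-0.21), Pias1 (-0.11) and Tbk1 (-0.13) turned negative and Mavs (0.22) and Lgals9 (0.31) did not pass. Of the other interferon-induced genes 10 fell without tumor 4 or 5 of YAP-S CCA and 23 without tumor 3 of that group, instead of 16. The share of all genes that fell in those fits is not given here, so these counts cannot be weighed against it. In mixed tumors 0 of the 84 genes of these 5 lists passed by edgeR's test (0% of all genes), and 5 had an unadjusted p under 0.05, against 3.01% of all genes. The difference between histologies was negative and past the threshold for 2 of 6 receptors, 1 of 8 negative regulators, 6 of 17 sensing genes and 9 of 48 other interferon-induced genes, and positive for 1 of the 48 (Lgals9, 0.72, adjusted p 0.0443), where 10.2% of all genes were negative and 5.02% positive. Examples are Ifngr1 (-1.22, adjusted p 0.00834), Socs1 (-3.64, adjusted p 0.0179), Tmem173 (-2.35, adjusted p 0.00885) and Slfn2 (-1.93, adjusted p 0.0076).

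Markers of leukocytes, T and NK cells and conventional dendritic cells mostly fell with these genes. Those of macrophages went both ways, and those of B cells and plasmacytoid dendritic cells had no calls with YAP-SY CCA lower. Of all genes, 20.8% fell and 18.3% rose in this comparison with all 12 tumors in edgeR's fit. Those shares are not given here for limma-voom or for fits that left out 1 tumor, so marker counts from them cannot be weighed. All 5 leukocyte markers fell in YAP-SY CCA, with a summed level of 52.9 to 93 CPM there, against 151 to 235 CPM in YAP-S CCA. Ptprc (CD45) was at 19.7, 23.8 and 29.4 CPM in tumors 1, 6 and 8 of YAP-SY CCA, against 35.4, 66.1 and 63.4 CPM in tumors 3, 4 and 5 of YAP-S CCA. Of 11 T and NK cell markers 7 fell (6.59 to 12.2 CPM in YAP-SY CCA, against 13.4 to 45.9 CPM in YAP-S CCA), a count of 2 to 4 when any 1 tumor other than tumor 3 of YAP-S CCA was left out, 9 without that tumor and 0 by limma-voom. Cd3e was at 0.748, 0.335 and 0.668 CPM in YAP-SY CCA, against 1.14, 2.69 and 2.83 CPM in YAP-S CCA. The 2 tumors of that group with the most Gbp2, Tap1 and Irf1, numbers 4 and 5, also had its most Cd3e and Ptprc. Others of the 36 did not follow this order. Irf7, Ifit1, Ifit3, Ifit3b, Oasl1, Mx1, Mx2, Rsad2, Bst2, Isg15, Usp18 and Ifi44 were higher in tumor 3 than in tumor 5. Of 6 markers of conventional dendritic cells 4 fell (22.8 to 31.5 CPM in YAP-SY CCA, against 62.7 to 91 CPM in YAP-S CCA). Of 10 macrophage markers 5 fell and 2 rose (385 to 579 CPM in YAP-SY CCA, against 602 to 1080 CPM in YAP-S CCA), with 1 that rose when any 1 tumor was left out and 3 that fell without tumor 4 of YAP-S CCA. The 2 that rose were Clec4f and Vsig4. Clec4f was at 102, 95.8 and 119 CPM in YAP-SY CCA, against 76.7, 78 and 64.3 CPM in YAP-S CCA. Vsig4 was at 39.7, 44.3 and 35.2 CPM in YAP-SY CCA, against 19.2, 24.6 and 19.5 CPM in YAP-S CCA. Of 6 fibroblast markers 5 fell (385 to 511 CPM in YAP-SY CCA, against 1490 to 1800 CPM in YAP-S CCA), and of 7 cholangiocyte markers 6 fell (2770 to 4200 CPM in YAP-SY CCA, against 7510 to 10900 CPM in YAP-S CCA). The 6 became 3 without tumor 6 of YAP-SY CCA and 4 without tumor 8 of that group or tumor 5 of YAP-S CCA. Of 7 hepatocyte markers 5 rose (126000 to 142000 CPM in YAP-SY CCA, against 44000 to 54900 CPM in YAP-S CCA). Of 4 B cell markers 0 passed in edgeR, DESeq2 or limma-voom, and 0 had an unadjusted p under 0.05 (3.58 to 9.25 CPM in YAP-SY CCA, against 3.34 to 5.9 CPM in YAP-S CCA). Of 4 tested markers of plasmacytoid dendritic cells 1 rose (19.3 to 21.8 CPM in YAP-SY CCA, against 7.96 to 13.3 CPM in YAP-S CCA). Ly6d made up most of the sum, at 18.8, 16.8 and 19.9 CPM in YAP-SY CCA, against 9.95, 4.73 and 8.45 CPM in YAP-S CCA, while Siglech, a defining marker, was at 0.385, 1.62 and 1.06 CPM in YAP-SY CCA, against 1.65, 2.34 and 3.04 CPM in YAP-S CCA. Of 5 endothelial markers 1 fell and 1 rose (272 to 374 CPM in YAP-SY CCA, against 233 to 311 CPM in YAP-S CCA), with 0 that rose without tumor 6 or 8 of YAP-SY CCA or tumor 5 of YAP-S CCA. Under library size alone 0 markers of macrophages, plasmacytoid dendritic cells and endothelium rose. No marker was at 0 in all tumors of a group, and the part of these cells in the fall of the interferon response genes was not tested. In mixed tumors, leukocyte markers summed to 94.7 to 221 CPM in YAP-SY mixed, against 94.5 to 150 CPM in YAP-S mixed, and T and NK cell markers to 10 to 35 CPM in YAP-SY mixed, against 6.58 to 15.1 CPM in YAP-S mixed. Both upper ends came from tumor 5 of YAP-SY mixed, while tumors 3 and 9 lay within the YAP-S mixed range. Tumor 8 of YAP-SY CCA, high in Ifit and Mx genes, had summed levels of 93 CPM for leukocytes and 11.7 CPM for T and NK cells, below each YAP-S CCA tumor in both. Within its group its leukocyte sum was the highest, with 60.6 CPM in tumor 1 and 52.9 CPM in tumor 6, and its T and NK cell sum lay between 6.59 CPM in tumor 1 and 12.2 CPM in tumor 6.

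SB1 cells were described without a test, since they form 1 group and their table was not scaled with that of the tumors. Nothing in the labels says that the 3 samples are separate cultures. Krt19 stood at 1100, 1400 and 1790 CPM in samples 1, 2 and 3, while Cd3e and Adgre1 had 0 counts in each sample (a count of 0 allows up to 3 counts, or 0.0982 to 0.118 CPM, for counting error only) and Ptprc had 0, 0 and 3 counts. Of the marker lists, 6 of 10 macrophage, 7 of 11 T and NK cell and 3 of 6 conventional dendritic cell genes had 0 counts in all 3 samples, while Csf1r was at 61.3, 36 and 66.1 CPM, Zbtb46 at 25.1, 23.8 and 26.6 CPM and Trac at 1.47, 2.45 and 3.46 CPM. Among cholangiocyte markers, Epcam had 6, 10 and 3 counts. Some fibroblast and hepatocyte markers were present as well. Dcn was at 192, 219 and 323 CPM, Col1a1 at 98.4, 113 and 139 CPM and Alb at 1110, 612 and 613 CPM. Lum had 0 counts in each sample, and Cyp2e1 had 8, 8 and 4 counts. All 36 interferon response genes were highest in sample 3, as were 40.2% of the 16041 genes with at least 10 counts in some sample. For 30 of the 36, sample 3 was at least 2-fold above both other samples, against 3.55% of all genes. Samples 1 and 2 led by that margin for 0 of the 36, against 0.966% and 0.698% of all genes. Scaling the libraries by TMM left the count at 30.

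Among the 34 genes with more than 3 counts in every sample, Irf7 had the widest gap. It was at 0.72, 0.947 and 19.3 CPM in samples 1, 2 and 3. Usp18 was at 0.655, 0.987 and 9.97 CPM and Isg15 at 5.86, 5.72 and 45.5 CPM. Oasl2 was at 8.55, 8.56 and 50.9 CPM and Oas3 at 0.426, 0.355 and 6.13 CPM. Samples 1 and 2 lay close together and sample 3 apart in each. Over these 34 genes, the ratio of the highest sample to the next had a median of 3.63 and ran between 1.03 and 20.4. It was 5.53 in the median over 12 antiviral effectors, 2.94 over 3 GBP genes and 2.93 over 3 antigen processing genes. The other 2 genes were low: Ifi44 had 3, 2 and 86 counts and Ifit3b had 17, 3 and 120 counts. Irf1, at 107, 118 and 136 CPM, Ifit2, at 68.9, 53 and 70.8 CPM, and Stat2, at 34.9, 37.5 and 54.2 CPM, were among the 6 genes under 2-fold. Of the 48 other interferon-induced genes, 46 had enough counts, 41 of these were highest in sample 3 and 17 by at least 2-fold over both. Among receptors, JAK-STAT genes and negative regulators 0 of 6, 0 of 5 and 0 of 8 reached that margin. Of the 10 ligand genes 9 had 0 counts in all 3 samples.

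**Figure D4:**
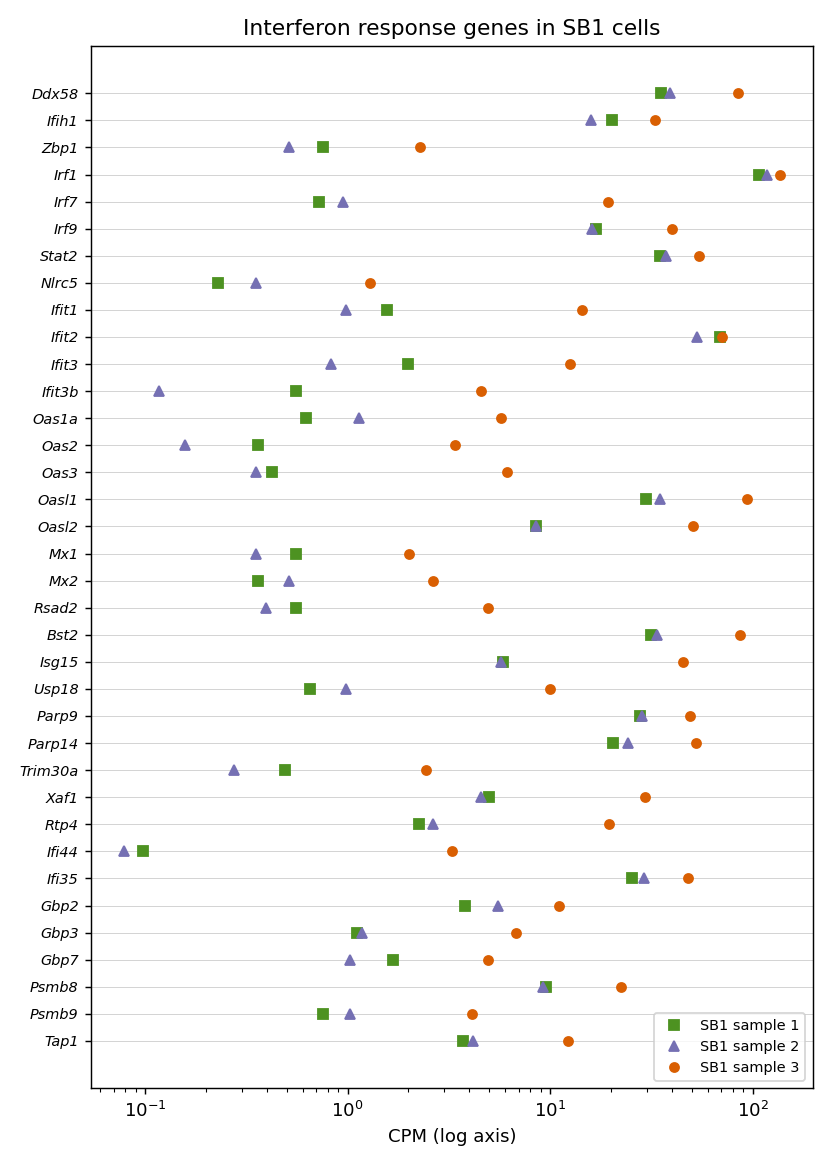
CPM of the 36 genes in the 3 SB1 samples, on a log axis. Sample 3 is the rightmost point in every row, by 1.03-fold over the next sample for Ifit2 and by 20.4-fold for Irf7.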

How the data were processed

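RNA of single tumor nodules and of cell lines was sequenced from TruSeq mRNA v2 libraries, per the labels' protocols, a kit that does not mark strand. The authors aligned reads with STAR to mm10, per the submitters' processing notes; the counting tool and annotation release are not given in the sources used here. The deposited tumor values are whole counts per gene that the file name calls corrected, with no word on what was corrected. The deposited SB1 values are raw counts per gene. Another 3 columns there could not be tied to any label and were not used.

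From these counts, filterByExpr dropped low genes given the groups, libraries were scaled by TMM, and all 12 tumors entered 1 fit with a term per group in edgeR 4.0.16 (R 4.3.3). The 6 contrasts were tested with glmQLFit and glmQLFTest, with Benjamini-Hochberg adjustment over 18318 genes and a threshold of 0.05. SB1 levels are CPM on plain totals. The steps were also run on simulated counts with the same spread for every gene and no outlying tumor. That does not show how they behave with the spread of these tumors. Depth limits precision through counting error, which the fit includes with the spread between tumors.

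Alternatives were DESeq2 size factors, library size alone, upper quartile factors, no filter, DESeq2 1.42.0 (Wald test), limma-voom (limma 3.58.1) without and with the tumor number as a replicate block, a fit of only the groups compared, and each tumor left out. Numbers 3, 5 and 9 occur in both models. After removal of group means, tumors that share a number correlated at 0.11 to 0.57 (3 pairs), and those with other numbers at -0.61 to 0.5 (51 pairs). This pairing comes from the numbers in the sample names, and the labels do not say what they mark.

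The genes and lists were chosen with earlier results of these data known. Values in every tumor are given for genes past the threshold in any contrast and for Irf7, Isg15, Stat2 and Irf9; a few others are named after their values were seen. Of other pathway lists, up to 3 genes with the smallest p are named, plus genes chosen after their values were seen. Sequences come from RefSeq promoters of GRCm38.p6. A gene of the pathway lists is not reported here.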

Additional observations from a re-analysis of the deposited data

Results flagged for a closer look

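For 10 genes the effect of YAP-SY differed between CCA and mixed tumors by a test of the difference itself (edgeR, adjusted over all genes), more negative in CCA each time. The differences in log2 fold change were -3.4 for Gbp2, -2.27 for Gbp3 and -1.6 for Gbp7, then -2.33 for Psmb9, -2.22 for Tap1 and -1.96 for Psmb8. They were -2.02 for Oasl2, -2.33 for Zbp1, -1.6 for Nlrc5 and -0.95 for Trim30a. Of all genes 10.2% differed in this direction.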

How the results depend on the processing

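Counts of the 36 genes past the threshold stood within 1.5 times of the reported value in 66 of 96 recomputations. The 66 include counts of 0 that stayed at 0, as in every fit of the mixed tumor comparison, and such a ratio says nothing of those. Apart from library size alone in CCA, how many of all genes these recomputations called is not given here. In CCA the 15 became 24 under library size alone, and leaving out 1 tumor gave 7 to 25. For the difference between histologies the 10 ran between 3 and 19 when 1 tumor was left out. Over both histologies the 2 became 14 under library size alone, 4 with upper quartile factors, 5 without the filter, 5 by DESeq2's Wald test and 4 with the replicate block, and 0 to 11 with 1 tumor left out. For CCA against mixed tumors in YAP-S the 0 became 2 with DESeq2 size factors, 10 under library size alone, 2 with upper quartile factors, 14 without the filter, 16 by the Wald test, 8 by limma-voom, 12 with the replicate block and 16 with only the groups compared. In YAP-SY the 0 became 2 without the tumors whose columns carry another prefix. The replicate block (correlation 0.22) moved no other count by over 1.5 times. In CCA limma-voom called 15 of the 36 without the block, with Isg15 in place of Irf1, and 16 with it, adding Ifi35. Stat2 in CCA turned negative under library size alone (-0.43), without tumor 1 of YAP-SY CCA (-0.16) and without tumor 3 of YAP-S CCA (-0.04), with -0.16 to 0.32 over the tumors left out. Of 578 recomputed log2 fold changes of single genes, 461 kept direction and side of the threshold, 74 lost the call and 40 gained it; the cause was not tested.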
